A study of Caenorhabditis elegans with 2 samples.

Results

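Small nucleolar RNA (snoRNA) genes that lie inside introns of protein-coding genes were examined for binding of SNPC-4 in the nematode Caenorhabditis elegans. A member was a nuclear gene of biotype snoRNA in the Ensembl annotation of WBcel235 (the assembly of build ce11) that lay wholly within a protein-coding gene and touched none of the exons of that host gene. The rule found 172 members among 346 nuclear snoRNA genes, in 152 host genes. Of these, 145 were transcribed on the strand of the host and 27 on the opposite strand. The rule itself uses positions alone, although the set was chosen for study with earlier results of these data known. Chromatin came from whole young adult hermaphrodites of strain YL551, a transgenic line that stably carries SNPC-4 with a C-terminal GFP-FLAG tag, 60 hours after synchronisation at the starved L1 larval stage. Sonicated chromatin was precipitated with an antibody to GFP, and the recovered DNA was sequenced (ChIP-seq), in 1 group of 2 biological replicates. The promoter of the transgene is not given in the sources used here. There was no second condition, the control library was not analysed here, and whole animals mix all tissues, so values are averages over the animal.

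SNPC-4 belongs to SNAPc, the complex that activates small nuclear RNA (snRNA) genes. It binds an element upstream of these genes and helps recruit the RNA polymerase that transcribes them. The snoRNAs guide the chemical modification of ribosomal and other RNAs: box C/D snoRNAs direct 2′-O-methylation and box H/ACA snoRNAs direct pseudouridylation. In vertebrates most snoRNAs inside introns are cut out of the host's spliced intron and have no promoter of their own, whereas a transfer RNA (tRNA) gene carries promoter elements called the A box and the B box within the transcribed region.

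The upstream sequences are shown first because the members with the strongest SNPC-4 signal shared letters there. The letters were found after members with a peak had been examined, so they describe these genes. They are AACNCG followed, after 5 bases, by TGTC, and are called the paired letters. Each line gives 100 bases that end at the base before the annotated 5′ end of the snoRNA, 5′ to 3′ on the snoRNA strand, from the RefSeq genome of WBcel235, with the paired letters in capitals. The 12 are examples from both strands, taken mostly from the top of the order of signal. Y37E3.20, T19C4.11, F54F11.6 and WBGene00220205, whose signals lie within the range of those shown, are left out. The capitals lie at close to the same distance from the right-hand end.
ZK994.7 (chrV:8500479-8500578, plus strand): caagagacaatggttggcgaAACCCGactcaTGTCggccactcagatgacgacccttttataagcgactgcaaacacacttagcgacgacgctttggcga
F01D5.12 (chrII:14018442-14018541, minus strand): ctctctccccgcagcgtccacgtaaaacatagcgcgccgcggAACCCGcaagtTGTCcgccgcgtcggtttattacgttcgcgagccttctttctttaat
C08D8.3 (chrV:8349008-8349107, plus strand): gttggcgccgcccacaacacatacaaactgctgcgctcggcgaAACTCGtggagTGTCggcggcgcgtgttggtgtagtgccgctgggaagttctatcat
C16D9.11 (chrV:8228970-8229069, minus strand): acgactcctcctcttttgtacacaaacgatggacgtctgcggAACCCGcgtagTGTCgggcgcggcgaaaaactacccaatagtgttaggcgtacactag
W04D2.7 (chrV:12491180-12491279, plus strand): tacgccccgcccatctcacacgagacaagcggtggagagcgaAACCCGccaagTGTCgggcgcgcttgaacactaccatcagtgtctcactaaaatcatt
T06D8.11 (chrII:11224082-11224181, plus strand): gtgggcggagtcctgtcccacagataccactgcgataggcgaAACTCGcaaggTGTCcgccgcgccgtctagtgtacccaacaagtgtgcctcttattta
smy-2 (chrIV:9511467-9511566, minus strand): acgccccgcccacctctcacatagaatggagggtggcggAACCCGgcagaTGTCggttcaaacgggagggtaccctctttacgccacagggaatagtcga
Y55F3BR.9 (chrIV:867134-867233, minus strand): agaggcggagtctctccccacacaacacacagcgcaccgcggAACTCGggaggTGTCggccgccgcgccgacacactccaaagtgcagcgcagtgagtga
C07A9.14 (chrIII:9717280-9717379, plus strand): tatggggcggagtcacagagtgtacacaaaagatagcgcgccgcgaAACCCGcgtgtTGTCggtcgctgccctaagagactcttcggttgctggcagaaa
C05H8.3 (chrIII:5653969-5654068, minus strand): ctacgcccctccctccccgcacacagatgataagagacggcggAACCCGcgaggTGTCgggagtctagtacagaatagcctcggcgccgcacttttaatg
K02C4.7 (chrII:8091609-8091708, plus strand): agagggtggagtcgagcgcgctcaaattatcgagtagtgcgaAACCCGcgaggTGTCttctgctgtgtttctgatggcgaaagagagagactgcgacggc
Y48A6C.10 (chrIII:11118261-11118360, plus strand): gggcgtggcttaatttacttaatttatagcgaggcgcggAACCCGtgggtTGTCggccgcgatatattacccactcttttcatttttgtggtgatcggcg
The first 7 of these snoRNA genes are on the strand of the host and the last 5 are on the opposite strand.

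A different set of members with a peak carried letters like those of tRNA promoters, TGGCNNAG (A-box letters) or GTTCNANNC (B-box letters). These letters were not among the planned searches either, so they too describe these genes. The word TGGCGCAG, which fits the A-box letters, was itself shared by 6 members with a peak. These 4 are shown as examples from both strands, taken from the named genes and not by rank alone. The first has the strongest signal of this kind. Several members whose signals exceed that of C04G6.12, among them F38E11.14 and ZK484.9, are not shown. Each line gives 100 bases upstream and the first 20 bases of the snoRNA, with the A-box and B-box letters in capitals. In Y43F8C.22, T03F7.8 and C04G6.12 both kinds of letters occur, in the order they have in a tRNA gene.
Y43F8C.22 (chrV:19643168-19643287, minus strand): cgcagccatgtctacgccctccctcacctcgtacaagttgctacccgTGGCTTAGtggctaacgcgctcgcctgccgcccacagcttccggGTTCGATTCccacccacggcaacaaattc
T03F7.8 (chrV:11314158-11314277, plus strand): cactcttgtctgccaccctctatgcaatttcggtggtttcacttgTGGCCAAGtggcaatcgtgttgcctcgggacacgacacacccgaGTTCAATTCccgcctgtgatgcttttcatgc
C27H5.9 (chrII:7184059-7184178, minus strand): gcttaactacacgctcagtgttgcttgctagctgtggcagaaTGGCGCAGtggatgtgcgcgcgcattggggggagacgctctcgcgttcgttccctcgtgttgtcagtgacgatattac
C04G6.12 (chrII:5105212-5105331, minus strand): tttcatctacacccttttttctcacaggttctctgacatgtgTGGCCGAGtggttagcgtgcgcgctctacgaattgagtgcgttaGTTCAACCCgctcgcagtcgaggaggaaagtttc
The same window of K11C4.6, a member of this kind without a peak, is shown for comparison. It is not typical, because its signal of 68.8 as a candidate region is among the highest of members without a peak, as given below.
K11C4.6 (chrV:6888976-6889095, plus strand): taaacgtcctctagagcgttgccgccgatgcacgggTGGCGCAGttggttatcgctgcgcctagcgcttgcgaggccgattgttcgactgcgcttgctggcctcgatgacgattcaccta
The upstream 100 bases of ZK185.9, the member with the strongest signal among those with neither kind of letters, hold the 8-mer TGTCGGCC (in capitals), without AACNCG at the required distance.
ZK185.9 (chrIV:4538917-4539016, minus strand): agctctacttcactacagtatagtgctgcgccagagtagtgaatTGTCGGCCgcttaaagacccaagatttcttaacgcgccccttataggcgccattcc

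A gene was said to have a peak when a summit of the authors' thresholded list lay within 250 bp of its 5′ end. Its regions were filtered for agreement of the replicates by the irreproducible discovery rate (IDR), and it has 2926 summits on the nuclear chromosomes. The signal of a summit is the authors' peak score, and over these summits it ran from 84.4 to 14797 with a median of 140.2. Depth is unknown because no read counts came with the lists. To set the replicates side by side, the signal of each was divided by its own median at the IDR peaks, which was 72.2 in replicate 1 and 80.05 in replicate 2, and the quotient is called the relative signal. Members are not replicates and were set beside other genes without a test. Intervals of shares are exact 95% Clopper-Pearson intervals that cover counting error only.

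A peak was found at 44 of the 172 intronic snoRNA genes, or 25.6% (95% interval 19.2 to 32.8), against 4.46% of all 46890 annotated nuclear genes. On the host strand 31 of 145 members had a peak (21.4%, interval 15 to 29.0), and on the opposite strand 13 of 27 (48.1%, 28.7 to 68.1). The intervals of the strand classes overlapped narrowly. Of the 174 snoRNA genes outside introns, 56 had a peak (32.2%, 25.3 to 39.7), an interval that overlaps that of the intronic genes. Among other RNA genes that lie inside introns by the same rule, the share was 69.1% for snRNA genes (38 of 55), 50% for tRNA genes (142 of 284) and 6.94% for genes of biotype ncRNA (190 of 2737). For piRNA genes inside introns it was 0.578% (29 of 5019).

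**Figure D1:**
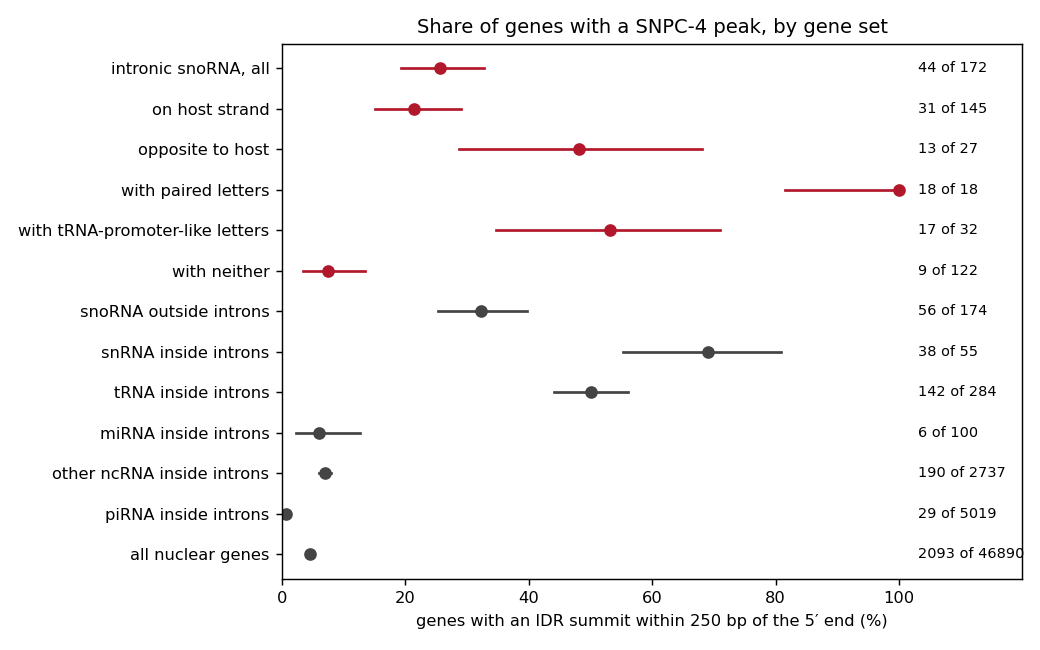
Share of genes whose 5′ end has an IDR summit no farther than 250 bp away, in percent, for intronic snoRNA genes (red) and other gene sets (grey); points are shares, bars are exact 95% intervals covering counting error only, and the counts stand at the right. All 18 members with the paired letters had a peak, against 17 of 32 with tRNA-promoter-like letters and 9 of 122 with neither. The paired letters were found at members with a peak, and neither kind of letters was a planned search, so these shares describe the members.

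Each replicate alone gave nearly the same count. Among the strongest 2950 summits of each replicate's own list, 45 members had one within 250 bp in replicate 1 and 45 in replicate 2, or 26.2% in both cases, against 4.12% and 4.39% of all nuclear genes. Of the 44 members with an IDR peak, 40 were in the replicate 1 list, 43 in the replicate 2 list and 40 in both. The relative signal of a member differed between replicates by 1.18-fold at the median and by at most 2.08-fold. It was higher in replicate 2 at 31 of the 44 members.

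The members stood high among the peaks of the whole genome. Of the 10 strongest nuclear IDR summits, 3 lay at intronic snoRNA genes, as did 10 of the strongest 50 and 15 of the strongest 100. Signal at the 44 members ran from 99.0 to 12519 with a median of 316.9, and the median relative signal was 2.16 ± 0.042 (SD, n = 2 replicates). The 44 members had 44 different summits, so no signal was counted for more than 1 of them. Members with a peak numbered 4 of 32 on chromosome I, 10 of 35 on II, 6 of 40 on III, 11 of 29 on IV, 12 of 32 on V and 1 of 4 on X.

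The paired letters divided the members by signal. They were present in the 100 bases upstream of 18 members, and all 18 had a peak. They were absent from the same window of the 128 members without a peak, and also from the 250 bp on either side of their 5′ ends on both strands. Because the letters were found by examining members with a peak, these counts describe the members and test nothing. At the 18 members signal ran from 284.1 to 12519 with a median of 4101, and the median relative signal was 27.8 ± 3.19 (SD, n = 2). All 16 members with a signal above 1000 carried them. Of the 18, 17 exceeded the 90th percentile of all nuclear IDR summits (411.2), as did 1 of the 17 members with a peak and tRNA-promoter-like letters and 1 of the 9 with a peak and neither. The division was not particular to introns. Among snoRNA genes outside introns, 15 of 17 with the paired letters had a peak, with a median signal of 3423. There, 15 of 21 with tRNA-promoter-like letters had a peak (median 221.6), as did 26 of 136 with neither (median 209.6).

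The strongest member was ZK994.7 (WBGene00044958), a 67-base gene at chrV:8500579-8500645 on the plus strand, in an intron of pxn-1, which encodes a peroxidasin. Its signal was 5210 in replicate 1 and 7450 in replicate 2, and 12519 in the pooled reads. Its relative signal was 72.2 and 93.1 in the replicates (82.6 ± 14.8, SD, n = 2), the highest of all members in both. F01D5.12, in an intron of F01D5.10, had signals of 3544 and 5439 in the replicates and a relative signal of 58.5 ± 13.3. C08D8.3, with 3485 and 4702, had a relative signal of 53.5 ± 7.41. ZK994.7 was the highest in each replicate. F01D5.12 was above C08D8.3 in both replicates, with relative signals of 49.1 against 48.3 in replicate 1 and 67.9 against 58.7 in replicate 2. Their means differed by less than the SD of either, but that SD includes a rise in replicate 2 that both genes shared.

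Another 4 members on the host strand were of similar strength. Y37E3.20, in an intron of pcyt-2.1, had signals of 4664 and 5747 in the replicates and a relative signal of 68.2 ± 5.09. C16D9.11 is in rol-3, a gene for a receptor tyrosine kinase, and had signals of 3455 and 4563 in the replicates. W04D2.7, in the innexin gene inx-11, had 3273 and 4309. T06D8.11, in plpr-1, had 2987 and 4112. These 7 snoRNA genes had the same order in both replicates, but the gaps between neighbours were mostly smaller than the spread between replicates. Part of that spread is a difference between the replicates that these genes shared. In both replicates each of the 7 had a higher relative signal than every other host-strand member.

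Below them on the host strand stood smy-2, T19C4.11 and F54F11.6. The gene smy-2 is annotated as a snoRNA but bears the symbol of an SmY RNA, a spliceosome-related RNA of nematodes, and had signals of 1600 and 2135 in the replicates. T19C4.11 lies in gpa-1, which encodes a G protein alpha subunit, and had 1082 and 1219. F54F11.6, in the chemoreceptor gene sre-45, had 895.1 and 1169. The relative signals of these 3 genes were 24.4 ± 3.19, 15.1 ± 0.167 and 13.5 ± 1.57 (SD, n = 2), and the gap between T19C4.11 and F54F11.6 was about the SD of the latter.

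On the opposite strand 6 members carried the paired letters, and they were the 6 strongest of that strand. Y55F3BR.9 (chrIV:867056-867133, minus strand) had signals of 2974 and 3906 in the replicates and a relative signal of 45.0 ± 5.38 (SD, n = 2). C07A9.14, in the sodium/calcium exchanger gene ncx-7, had 2091 and 2679 and a relative signal of 31.2 ± 3.19. C05H8.3 lies in ckk-1, which encodes a calmodulin-dependent kinase kinase, and had 1201 and 1294. K02C4.7, in ltd-1, had 931.7 and 1204. The snoRNA gene WBGene00220205, in the polycystin gene pkd-2, had 709.7 and 718.5, and several annotated piRNA genes have 5′ ends within 250 bp of its summit. Y48A6C.10, in sup-35, had 555.4 and 668.5. The median relative signal of these 6 was 15.2 ± 0.590, against 47.97 ± 6.54 for the 12 host-strand members with the paired letters.

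The remaining members with the paired letters, Y73B6A.14 and C02C6.13, had far lower signals than the others. Y73B6A.14 had signals of 290.4 and 289.2 in the replicates, with a relative signal of 3.82 ± 0.289. C02C6.13, the single X-linked member with a peak, had 151.0 and 146.1, and 1.96 ± 0.188. Both lay in long introns, with 3380 and 5378 intron bases upstream of the snoRNA. C02C6.13 was chosen for mention after its values had been seen.

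**Figure D2:**
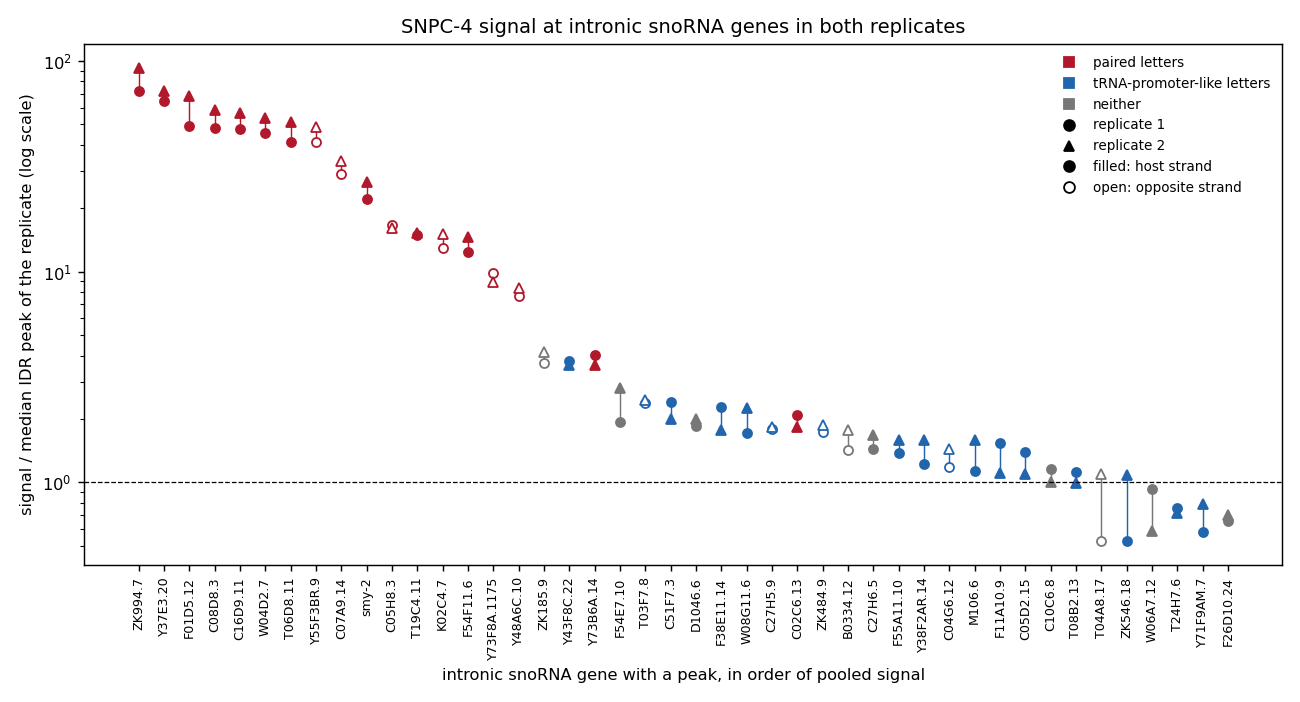
Relative signal (peak score divided by the replicate's median at IDR peaks, log axis) of the 44 intronic snoRNA genes with a peak in replicate 1 (circles) and replicate 2 (triangles), in order of pooled signal; colour marks the upstream letters, filled symbols the host strand and open symbols the opposite strand. The 16 genes at the left carry the paired letters and lie above 7 in both replicates, while the members with other letters lie below 5.

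The strand classes were also set side by side for these letters. The paired letters occurred at 12 of 145 host-strand members (8.28%) and at 6 of 27 opposite-strand members (22.2%). The tRNA-promoter-like letters occurred at 15.9% and 33.3% of them, and 75.9% and 44.4% had neither. Among members with tRNA-promoter-like letters, 13 of 23 on the host strand (56.5%, 34.5 to 76.8) and 4 of 9 on the opposite strand (44.4%, 13.7 to 78.8) had a peak. Among those with neither, the counts were 6 of 110 (5.45%, 2.03 to 11.5) and 3 of 12 (25%, 5.49 to 57.2). The latter share was higher on the opposite strand, but its interval is wide and overlaps that of the host strand.

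The paired letters sat at a nearly fixed place. AACNCG began between 80 and 54 bases upstream of the 5′ end, with a median of 58, and TGTC began a median of 47 bases upstream. The ZK994.7 gene was the farthest, and the other 17 began between 66 and 54 bases upstream. The summit lay within 20 bp of the first base of TGTC at 13 of the 18 members, and the median offset was -0.5 bp. Over all 44 members the summit had a median position of -45 bp (quartiles -54 and -26.75, negative values upstream), with medians of -43 in replicate 1 and -45 in replicate 2. It was upstream of the 5′ end at 40 of the 44.

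**Figure D3:**
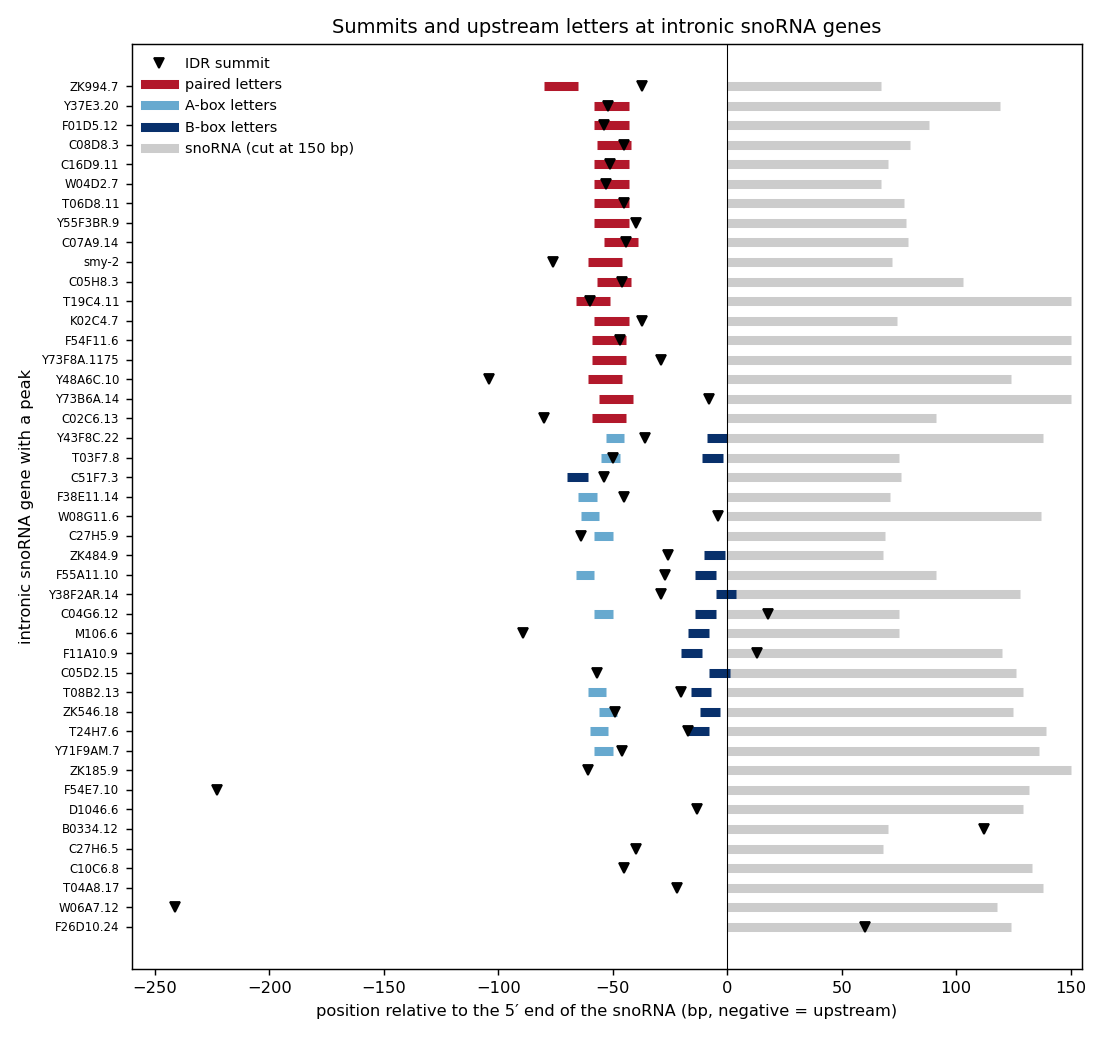
Position of the IDR summit (black triangles) and of the upstream letters (coloured bars) relative to the 5′ end of each of the 44 intronic snoRNA genes with a peak, in bp; grey bars show the snoRNA, ended at 150 bp. In the upper 18 rows the red bars of the paired letters line up, and most summits lie on or close to them.

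The same letters were rare upstream of genes at large. They occurred on the gene strand in the 100 bases upstream of 106 of 46890 nuclear genes (0.226%, or 0.262% on either strand), and 80 of those 106 genes had a peak. Both counts include the 18 members, all with a peak, among which the letters were found. The paired letters were present at 17 of 174 snoRNA genes outside introns (9.77%), of which 15 had a peak. They were also present at 30 of 129 snRNA genes (23.3%), of which 26 had a peak. Only 9 of 19973 protein-coding genes had them (0.0451%), and 2 of these had a peak. In the nuclear genome the letters occurred 1900 times on both strands together, and 507 of the occurrences (26.7%) lay within 250 bp of an IDR summit. Conversely, 352 of the 2926 nuclear summits (12%) had them within 100 bp.

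The tRNA-promoter-like letters were spread over members with and without a peak, and the peaks had lower signals. These letters, in the window from 100 bases upstream to 20 bases into the gene, occurred at 32 members, 17 with a peak and 15 without. None of the 32 also held the paired letters. Signal at the 17 ran from 105.1 to 566.4 with a median of 206.2, and the median relative signal was 1.49 ± 0.134 (SD, n = 2). Their letters lay close to the snoRNA: A-box letters began between 66 and 53 bases upstream and B-box letters between 70 and 5 bases upstream, with a median of 14. Over all nuclear genes 3.45% held either kind in that window (6.06% on either strand), and 12.1% of snoRNA genes outside introns did. Within the first 100 bases of annotated tRNA genes, where the boxes belong, 97.5% of 612 genes held either kind. Nearly all of that came from the B-box letters, at 580 genes (94.8%), while the A-box letters as searched were found at 109 (17.8%), so they are a poor marker of tRNA genes. Of the 17 members with a peak, 11 held A-box letters and 13 held B-box letters.

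Y43F8C.22 was the strongest of them, with signals of 273.6 and 288.6 in the replicates and a relative signal of 3.697 ± 0.130. T03F7.8, on the opposite strand in the cuticlin-like gene cutl-18, had 172.5 and 197.8. C27H5.9 in pdl-1 had 129.9 and 147.2, ZK484.9 in the transporter gene haf-9 had 124.9 and 150.5, and C04G6.12 in the MAP kinase gene mpk-2 had 85.7 and 115.6. The relative signals of these 4 opposite-strand genes were 2.43 ± 0.058, 1.82 ± 0.028, 1.80 ± 0.107 and 1.32 ± 0.182, so C27H5.9 and ZK484.9 differed by less than the replicate spread. Both kinds of letters together were present at 7 members with a peak and at 1 without.

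Among the 122 members with neither kind of letters, 9 had a peak (7.38%, 3.43 to 13.5), with signals from 99.0 to 577.1. That interval includes the 4.46% of all nuclear genes. ZK185.9, on the opposite strand of ZK185.2, was the strongest, with signals of 266.7 and 333.8 in the replicates and a relative signal of 3.93 ± 0.337. T04A8.17, in ppat-1, had 38.1 and 87.6, one of the widest spreads between replicates. Letters were matched exactly, so near matches did not count as A-box or B-box letters. Examples are TGTCCGAG and GTTCAATCT upstream of T04A8.17, GTTCGTGCC upstream of C10C6.8, and TTGCGCAG and GATCGATTC upstream of D1046.6. Members with neither are thus those without an exact match. At 3 of the 9 the summit lay farthest from the 5′ end of all members with a peak: W06A7.12 at -241 bp, F54E7.10 at -223 bp and B0334.12 at 112 bp. F54E7.10 lies in rps-12, a ribosomal protein gene, and its summit was 143 bp from the 5′ end of the host, nearer to it than to the snoRNA. It was the single member whose summit was nearer to a protein-coding 5′ end.

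The planned searches gave less. TATAA was present upstream of 4 of the 44 members with a peak and 11 of the 128 without, against 20.3% of all genes. The 8-mers shared by the most members with a peak were AACCCGCG and TGTCGGCC, at 7 of 44 each and at 0 of 128 without a peak, which allows a share of up to 2.34% there. Both words were chosen on the members with a peak, so this contrast is a description only. Over all genes, these members included, they were present at 0.0853% and 0.113%. AACCCGCG covers part of the paired letters at genes with that spelling, and TGTCGGCC overlaps their right-hand end.

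The RNAs themselves were searched for the letters of their families. The transcribed sequences of 3 members are shown because each carries such letters, in capitals: CTGA (box D) near the 3′ end of ZK994.7, TGATGA (box C) and CTGA in Y55F3BR.9, and ACA close to the 3′ end of Y43F8C.22, as in box H/ACA snoRNAs.
ZK994.7 (chrV:8500579-8500645, plus strand): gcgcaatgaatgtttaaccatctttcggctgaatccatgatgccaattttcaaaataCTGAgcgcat
Y55F3BR.9 (chrIV:867056-867133, minus strand): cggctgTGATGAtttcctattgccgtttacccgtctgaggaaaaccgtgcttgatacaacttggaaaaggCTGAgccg
Y43F8C.22 (chrV:19643050-19643187, minus strand): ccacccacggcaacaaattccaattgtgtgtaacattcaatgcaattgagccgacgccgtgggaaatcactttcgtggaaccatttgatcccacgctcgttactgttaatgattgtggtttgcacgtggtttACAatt
CTGA in the last 20 bases occurred at 11 of the 18 members with the paired letters, 6 of the 17 with a peak and tRNA-promoter-like letters, and 0 of the 9 with a peak and neither. ACA 3 bases before the 3′ end, give or take 1, occurred at 1, 7 and 6 of them. Over all members, CTGA was present at 17 of 44 with a peak and 27 of 128 without, and ACA at 14 of 44 and 43 of 128. The strict pair of box C and box D letters was found at 8 of the 172 members, 3 of them with a peak. Median length was 84 bases with the paired letters, 120 bases with tRNA-promoter-like letters and a peak, and 129 bases without a peak.

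The place of each member within its intron was measured on the strand of the snoRNA. All 18 members with the paired letters had at least 149 intron bases upstream on their own strand before the next host exon. Of the 44 members with a peak, 37 had at least 100 such bases, against 68 of the 128 without. The median was 206.5 bases with a peak and 109 without. For the other 60 members without a peak the 100-base window reached into a host exon, so what could be found there was limited by the exon. Introns of members with a peak had a median length of 359 bases, those with the paired letters 764, those with tRNA-promoter-like letters and a peak 284, and those of members without a peak 479.

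**Figure D4:**
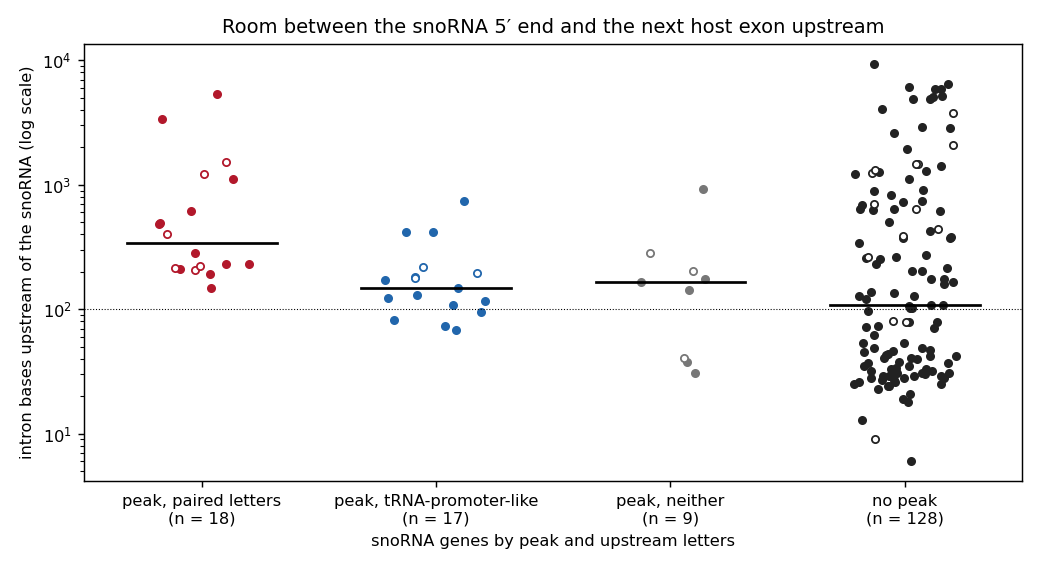
Intron bases between the 5′ end of each snoRNA and the next host exon upstream on the snoRNA strand (log axis), for members with a peak by their upstream letters and for the 128 members without a peak; filled points are on the host strand, open points on the opposite strand, black lines are medians, and the dotted line marks 100 bases. The 18 members with the paired letters all lie above the dotted line, while 60 of the 128 members without a peak lie below it.

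Most members without a peak had no candidate region in the pooled list either. Each candidate list held 30000 entries. The share of all nuclear genes with a pooled candidate is not given here, so these counts have no background beside them. Of the 128, 88 had no summit of the authors' pooled candidate list within 250 bp, though 21 of these had one in the list of at least 1 replicate, and the other 40 had pooled candidates with a median signal of 29.8, close to the median of 27.2 of that list. The highest were Y71D11A.7 in acsd-1 with 78.2, C02F5.15 in rfs-1 with 73.5, K11C4.6 in unc-70 with 68.8, B0412.7 in rps-29 with 66.3 and F25H2.14 in tct-1 with 61.1. C02F5.15 had signals of 45.7 and 58.1 in the replicates and was among the 2950 strongest in both. F19H8.6, in mltn-9, had no pooled candidate but signals of 52.6 and 67.1 in the replicates, also among the 2950 strongest in both, and it carries A-box letters. It was chosen for mention after its values had been seen. F25H2.14 had 53.9 and 11.96, and so was high in replicate 1 alone. Absence of a peak means only that no summit of the thresholded list lay within 250 bp of the 5′ end. At unknown depth, weak binding could have been missed.

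Host genes were examined because a summit at the host's own start could be taken for one at the snoRNA. Of the 152 hosts, 42 (27.6%) had an IDR summit no farther than 500 bp from an annotated 5′ end of their own, against 7.65% of protein-coding genes. The count was 13 of 44 (29.5%) for hosts of members with a peak and 31 of 110 (28.2%) for hosts of members without. Hosts with members of both kinds, such as pdl-1 and rps-12, were counted in both. Of the 13 host starts, 8 lay within 500 bp of the snoRNA's own summit. With summits within 250 bp of any member left out, the counts were 35 of 152 hosts in all (23%), 6 of 44 hosts of members with a peak (13.6%) and 29 of 110 hosts of members without (26.4%). Among the 13 ribosomal protein genes that host 19 members, 11 had a peak of their own (10 with the summits at members left out), but F54E7.10 was the single one of the 19 snoRNA genes with a peak. A further 12 members had their nearest summit over 250 and up to 500 bp from the 5′ end, from C02F5.15 at -279 bp and C16A3.11 at 312 bp to B0041.9 at -491 bp. Of these 12 members, 6 were in ribosomal protein genes, and 11 had a host with its own peak. At 18 of the 44 members with a peak, another annotated gene also had its 5′ end within 250 bp of the summit, and at those the signal cannot be assigned to the snoRNA gene alone. Among these are strong members named above: Y37E3.20, F01D5.12, T06D8.11, T19C4.11, Y55F3BR.9 and C05H8.3.

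The proteins that work with snoRNAs were looked at beside them. Of 10 genes for snoRNA-protein complexes, 8 had an IDR summit no farther than 500 bp from a 5′ end, against the 7.65% of all protein-coding genes given above. The list was short and chosen with earlier results known. Among the box C/D proteins, fib-1, which encodes the methyltransferase fibrillarin, had a signal of 283.7 at -345 bp, nol-56 had 137.3, nol-58 had 125.1 and snu-13 had 109.4. Among the box H/ACA proteins, dkc-1, which encodes the pseudouridine synthase dyskerin, had 116.5 and Y48A6B.3 had 133.8, while garr-1 and nola-3 had no peak. The assembly factors ruvb-1 and ruvb-2 had 135.2 and 281.7. Only the summit of ruvb-2, at -127 bp, lay within the 250 bp used for the members. The others lay from -345 bp (fib-1) to -251 bp (dkc-1). Only fib-1 and ruvb-2 exceeded the median of all nuclear IDR summits (140.2). All 8 signals were below the lowest signal of a member with the paired letters (284.1). The gene nol-56 is itself a host of 4 members, none with a peak, and their nearest summits lay from -2321 bp (K07C5.18) to -397 bp (K07C5.11).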

How the data were processed

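SNPC-4 ChIP-seq was analysed in 1 group of 2 biological replicates. The deposited lists are in narrowPeak form, and those of build ce11 were used; those of ce10 were not. The signal is the score that the authors deposited for each region, on a scale that depends on depth. The other unit is the summit, which the authors deposited as a distance from the start of the region, here converted to 1-based coordinates. Per the file listing deposited with them, thresholded regions came from candidates of the single replicates and of the pooled reads, with a control as background. Which aligner, peak caller and threshold were used is not given in the sources used here. Depth and the precision it gives are therefore unknown.

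Genes came from Ensembl release 115 and sequences from the RefSeq genome, both of WBcel235, the assembly of ce11; RefSeq held 171 of the 172 members at equal coordinates. Of the members, 2 lay in 2 possible hosts, and the innermost was used. The strongest IDR summit within 250 bp was taken as a member's peak, and distances of 500 bp were used for protein-coding genes. Letters were searched on the snoRNA strand, with the other strand given where stated. Where a value is 0 of n, the limit given is 3 counts of n. Named genes were the 12 strongest members with a peak on each strand, the 3 farthest inside 250 bp, those over 250 and up to 500 bp, the 5 strongest candidates without a peak, their hosts and the snoRNA-protein genes; not every one is printed. The members and lists were chosen with earlier results of these data known. The replicates are described by mean ± SD, and no test was run. Alternatives were other distances, the 1475 strongest peaks, each replicate alone, overlap of whole regions and other letter rules. The counting steps were tested on simulated data. Python 3.11.15, pandas 2.3.3, numpy 2.4.6 and scipy 1.17.1 were used.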

Additional observations from a re-analysis of the deposited data

How the results depend on the processing

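The number of members with a peak was 44, and stayed within 1.5 times that number under all alternatives tried: 40 at 100 bp, 56 at 500 bp, 38 with the 1475 strongest peaks, 45 to 45 with each replicate alone, 42 by overlap of region and gene, and 43 without members that touch an exon of another gene, without the summit nearer to a protein-coding 5′ end, or without smy-2. The last 2 alternatives and those of the letters were chosen after seeing the data. Host-strand counts ran from 26 to 42 and opposite-strand counts from 11 to 14. The median summit position was -46 bp at 500 bp, where the main value was -45. The median relative signal of the pooled list was 2.26, with 2.13 to 2.19 in the replicates alone, and the geometric mean in its place was 4.75. Hosts with a peak of their own numbered 42 within 500 bp, 20 within 250 bp, 53 within 1000 bp, and 35 within 500 bp when summits within 250 bp of any member were left out. Members with the paired letters and a peak numbered 18 under every letter rule tried. Members with tRNA-promoter-like letters and a peak numbered 17, and 7 when both kinds were required; extending the window to 150 bases kept 17 and raised those without a peak from 15 to 20. No paired analysis was possible because there is 1 group. Signal carries no depth, so weak binding cannot be told from none.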
